A study of Mus musculus with 22 samples.

Results

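The TNF superfamily was followed across skin, cultured MC38 cells and MC38 tumors of wild-type and RAG1-/- mice. Its members were taken by name from the gene table. They are Tnf, Lta, Ltb, Ltbr, Fas, Cd27, Cd40, Cd40lg, Cd70, Eda2r, Ngfr and every symbol made of Tnfsf or Tnfrsf and a number. This gave 42 of 46882 genes, 16 ligands and 26 receptors.

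MC38 is a colon adenocarcinoma line of C57BL/6 mice, injected under the skin of the left flank of female mice. RNA was sequenced from 16 libraries in 6 groups. There were 2 of MC38 cells (day 0), 2 of normal skin (wild type, C57BL/6N, day 23), 3 of tumors at day 23 and 3 at day 46 in wild-type C57BL/6N mice, and 3 at day 13 and 3 at day 23 in RAG1-/- mice of the strain B6.129S7-Rag1tm1Mom/J, which lack mature T and B cells. Mice were 8 to 12 weeks old, and a piece of each tumor was used. The labels name tumor cells as the source, but RNA came from pieces that held host tissue.

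Library size ranged from 5589151 to 26134241 reads on genes, so 3 reads, used here as the lower limit of detection, equalled 1.33 to 6.38 normalized counts. Rag1 had 1 to 12 reads in each of the 6 tumors labelled RAG1-/- and a read in 1 of the 6 wild-type tumors. Because reads come from the 3′ end of transcripts, which can lie outside the deleted part, these reads check neither label, and the tumors are called "labelled RAG1-/-" below. Of 11 T cell marker genes, Cd3e, Cd3g, Cd8b1 and Trac had no read in these 6 tumors, and the summed T cell markers stood at 4.26 to 41.9 normalized counts there and at 97.2 to 296 in wild-type tumors. Of 7 B cell marker genes, Cd79a alone had no read in the tumors labelled RAG1-/-. The summed B cell markers stood at 42.6 to 153 there and at 114 to 461 in wild-type tumors, so these groups overlapped. Skeletal muscle markers reached 7340 and 7176 normalized counts in replicates 1 and 3 of day 13, against 23.0 to 1020 in the wild-type tumors, and 81206 and 117759 in skin, so the skin libraries held muscle. The labels do not say which libraries share a mouse or a culture, so p-values measure the spread between these samples.

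TNF superfamily ligands are trimeric proteins of the cell surface, and many are also shed. Their receptors fall into those with a death domain, which can start apoptosis through FADD and caspase 8, those that recruit TRAF adaptors and activate NF-κB, and decoys that bind ligand without signalling. In tumors the family is best known for killing by cytotoxic cells and for costimulation of T cells.

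Receptors were detected more widely than ligands. A mean of at least 5 normalized counts, the minimum for testing, was reached by 24 of the 26 receptors in skin, 12 in MC38 cells, 20 in wild-type tumors and 19 in tumors labelled RAG1-/-. Among the 16 ligands the numbers were 9, 2, 6 and 6. MC38 cells had no read at all for 16 of the 42 members. Of all 46882 genes, 17790 had a read in MC38 replicate 1 and 17639 in replicate 2, so most genes had none. Over the 12 tumors, 24 members reached the minimum and 18 did not. Among these 18, Cd40lg, the ligand that lets helper T cells license antigen-presenting cells, had 1 read in a single tumor, and Tnfsf13 (APRIL), a survival factor of B cells, was read in a single tumor. Of the exonic bases of Tnfsf13, 60.0% are shared with the readthrough gene Tnfsfm13. Reads there may not have been counted for Tnfsf13, so its low count does not show absence.

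**Figure D1:**
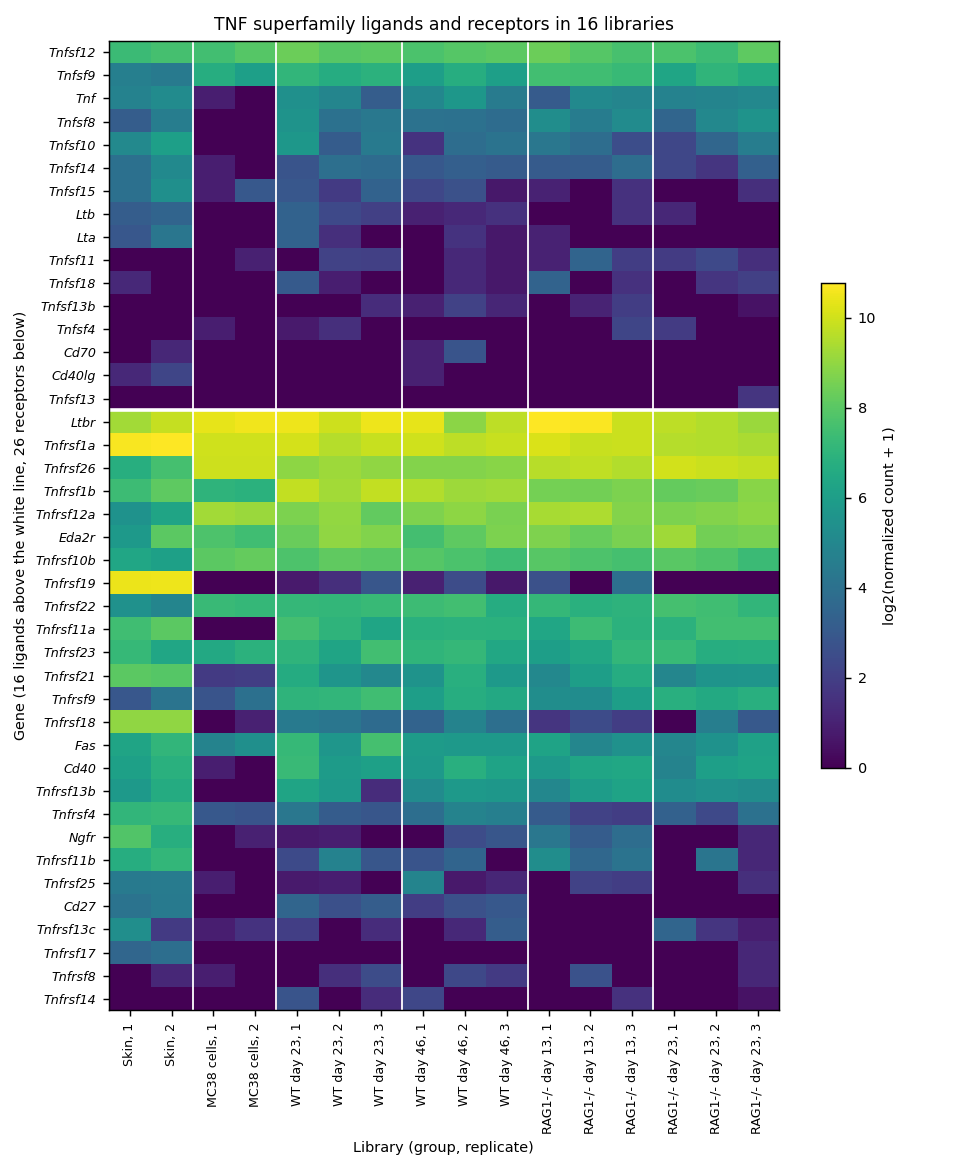
Log2(normalized count + 1) of the 42 members (rows, 16 ligands above and 26 receptors below the white line, each ordered by mean) in 16 libraries (columns, by group and replicate). Tnfrsf19 was at 1400 and 1457 normalized counts in skin and at 0 in both MC38 libraries, while Ltbr and Tnfrsf1a were high in every library.

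The comparison of the 2 genotypes, as wild type minus RAG1-/-, asks how the family differs with an adaptive immune system in the host. Over both days it sets days 23 and 46 of wild type against days 13 and 23 of RAG1-/-, so genotype and tumor age cannot be told apart in it, nor in the exact tests and ratios over 6 against 6 tumors. Day 23 alone is given beside it. The strains of the wild-type and RAG1-/- mice differ as well, so genotype and strain cannot be told apart in either comparison. Of the 24 members tested, 2 passed the threshold of an adjusted p of 0.05, against 0.712% of the 14746 genes tested. Tnfrsf1b was higher and Tnfrsf26 was lower in wild-type tumors. The median log2 difference over the 24 members was 0.13, and over all genes it was 0.01. The groups of 6 did not overlap for these 2 members and for 0.983% of all genes tested.

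Tnfrsf1b encodes TNFR2, the TNF receptor without a death domain, found mainly on myeloid cells and lymphocytes. It lies at chr4:145213463-145246870 (mm10, minus strand). Wild-type tumors held 889, 629 and 878 normalized counts at day 23 and 739, 588 and 627 at day 46. Tumors labelled RAG1-/- held 363, 356 and 402 at day 13 and 298, 313 and 464 at day 23. Every wild-type tumor was therefore above every tumor labelled RAG1-/-. The means were 725 ± 133 and 366 ± 60.8 (SD, n = 6 each), and the log2 difference was 0.98 (SE 0.14, limma, adjusted p = 0.00312). An exact two-sided permutation test of 6 against 6 gave p = 0.00216, the smallest value this design allows. With day 23 alone the log2 difference was 1.16 (SE 0.20, limma, adjusted p = 0.0227).

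The other TNF receptor was measured in the same tumors. Tnfrsf1a, which encodes the death domain receptor TNFR1 and is made by most cell types, had means of 926 ± 114 and 875 ± 181 (SD, n = 6 each), and its log2 difference was 0.10 (95% confidence interval -0.14 to 0.33). The ratio of Tnfrsf1b to Tnfrsf1a had a median of 0.774 (0.672 to 0.945) in wild-type tumors and 0.401 (0.316 to 0.690) in tumors labelled RAG1-/-, with an exact permutation p of 0.00433. The ratio was chosen after the values were seen. The ligand Tnf was at 7.92 to 50.4 normalized counts in wild-type tumors and 7.49 to 33.4 in tumors labelled RAG1-/-, and the groups overlapped. Lta, the second ligand of both receptors, had at most 9.59 normalized counts in any tumor.

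Summed macrophage markers (8 genes, all read in every group of tumors) ranged from 13145 to 22709 normalized counts in wild-type tumors and from 10251 to 17047 in tumors labelled RAG1-/-, and those of dendritic cells (7 genes, of which Xcr1 had no read in tumors labelled RAG1-/-) from 570 to 1211 and from 359 to 665. The part of these cells and of T cells in the Tnfrsf1b difference was not tested. In bulk tissue, fewer cells of a type and less RNA per cell cannot be told apart.

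The promoter of Tnfrsf1b is printed because this receptor was the member that was higher in wild-type tumors. It covers 250 bases before and 30 bases after the transcript start, at chr4:145246841-145247120 on the minus strand (RefSeq, GRCm38.p6), with motif matches in capitals.
Tnfrsf1b: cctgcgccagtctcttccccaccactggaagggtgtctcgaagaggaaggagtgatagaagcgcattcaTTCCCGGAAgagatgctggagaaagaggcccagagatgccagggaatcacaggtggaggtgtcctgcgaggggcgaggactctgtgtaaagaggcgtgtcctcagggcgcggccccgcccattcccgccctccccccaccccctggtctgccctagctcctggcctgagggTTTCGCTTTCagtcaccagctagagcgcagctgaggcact
The gamma-activated site, searched as TTCNNNGAA, matched at positions -181 to -173 relative to the start, and the core of the interferon-stimulated response element, searched as GAAANNGAAA, matched on the opposite strand at -10 to -1. Both strands were searched in the same window of 32851 promoters, where 7.83% held the former and 3.28% the latter. Of the 36 promoters that matched 32 of the members, 9 held the former (Fas, Lta, Ltb, Tnfrsf18, Tnfrsf19, Tnfrsf1a, Tnfrsf1b, Tnfrsf25 and Tnfrsf9) and 4 the latter (Tnfrsf14, Tnfrsf17, Tnfrsf1b and Tnfsf13b). A match describes letters and does not show binding.

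Tnfrsf26 went the other way. It encodes a receptor related to the mouse decoy receptors of TRAIL and lies at chr7:143607659-143628722 (minus strand). Wild-type tumors held 489, 581 and 499 normalized counts at day 23 and 441, 434 and 460 at day 46. Tumors labelled RAG1-/- held 785, 862 and 731 at day 13 and 1060, 970 and 889 at day 23. The groups did not overlap. The means were 484 ± 54.3 and 883 ± 120 (SD, n = 6 each), with a log2 difference of -0.86 (SE 0.10, limma, adjusted p = 0.000583) and an exact permutation p of 0.00216. At day 23 alone the log2 difference was -0.89 (SE 0.14, limma, adjusted p = 0.0212).

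Leaving out replicate 1 or 3 of the wild-type tumors of day 23, or replicate 1 or 2 of the tumors labelled RAG1-/- of day 23, ended the call at day 23 for both receptors. The adjusted p of limma was then 0.0980 to 0.164 for Tnfrsf1b and 0.0680 to 0.161 for Tnfrsf26. Over both days, both receptors passed under all 23 alternatives run.

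MC38 cells in culture held 980 and 1004 normalized counts of Tnfrsf26, and skin held 107 and 192. Tumors labelled RAG1-/- differed from MC38 cells by -0.18 on the log2 scale (95% confidence interval -0.47 to 0.11, limma, adjusted p = 0.39). Wild-type tumors were lower than MC38 cells, by -1.04 on the log2 scale (SE 0.14, limma, adjusted p = 1.27e-05), and higher than skin, by 1.74 (SE 0.18, adjusted p = 2.09e-06).

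**Figure D2:**
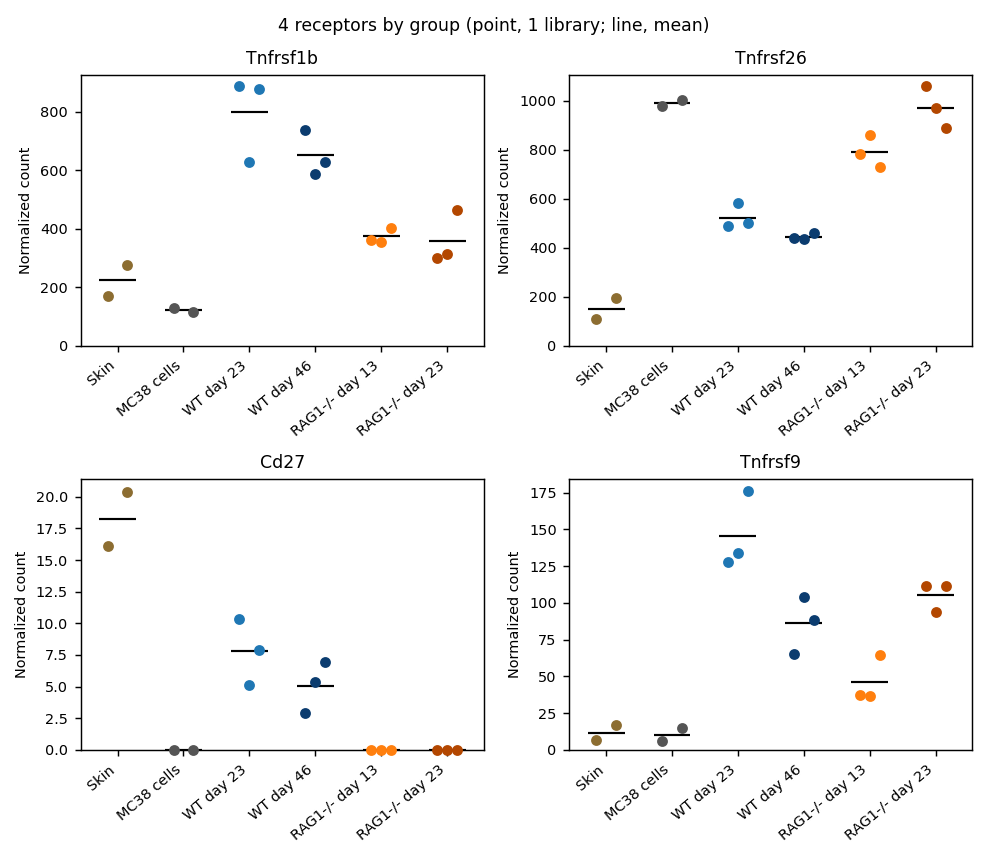
Normalized counts (vertical axes, linear, from 0) of Tnfrsf1b, Tnfrsf26, Cd27 and Tnfrsf9 in each library (points) with the group mean (lines). All 6 wild-type tumors are above all 6 tumors labelled RAG1-/- for Tnfrsf1b and Cd27 and below them for Tnfrsf26, and Tnfrsf9 is at 93.6 to 112 at day 23 and 36.7 to 64.8 at day 13 of the tumors labelled RAG1-/-.

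Tnfrsf26 shares its locus with Tnfrsf22 and Tnfrsf23, the decoy receptors of TRAIL, within 78.2 kb of chromosome 7 on the same strand. Tnfrsf22 (chr7:143634806-143649661) had 101 to 183 normalized counts in wild-type tumors and 112 to 192 in tumors labelled RAG1-/-. The groups overlapped, and the log2 difference was 0.00 (95% confidence interval -0.37 to 0.38). Tnfrsf23 (chr7:143665809-143685872) had 76.7 to 184 and 64.2 to 153, with a log2 difference of 0.19 (interval -0.34 to 0.72). The lower level in wild-type tumors was measured for Tnfrsf26, and the intervals of both neighbours included 0.

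The ratio of Tnfrsf26 to Tnfrsf22 had a median of 3.33 in wild-type tumors (2.36 to 4.51) and 5.68 in tumors labelled RAG1-/- (5.49 to 7.61), and an exact permutation test gave p = 0.00216. In MC38 cells this ratio was 6.26 and 6.90. The ratio to Tnfrsf23 was 2.71 to 7.49 and 5.22 to 12.1, with an exact p of 0.00866, and the ratio of Tnfrsf22 to Tnfrsf23 was 0.820 to 1.79 and 0.898 to 2.20, with an exact p of 0.409. These 3 ratios were chosen after the values were seen, and as ratios of different genes they are compared between groups only. Transcripts of Tnfrsf26 share no stretch of 22 bases, the shortest read the authors kept, with those of Tnfrsf22 or Tnfrsf23. Tnfrsf22 shares 31.5% of its stretches of that length with Tnfrsf23, so reads of these 2 genes can be misassigned to each other.

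The ligand of Tnfrsf22 and Tnfrsf23, TRAIL (Tnfsf10), which kills cells through a death domain receptor, had no read in MC38 cells and 32.1 and 67.6 normalized counts in skin. It was at 1.95 to 51.6 in wild-type tumors and 3.93 to 23.0 in tumors labelled RAG1-/-. The highest tumor was replicate 1 of wild type at day 23, and the groups overlapped. Tnfrsf10b, the death domain receptor of TRAIL in mice, was at 172 to 282 normalized counts in wild-type tumors and 160 to 259 in tumors labelled RAG1-/-. In MC38 cells it reached 264 and 300, above the 81.7 and 68.8 of skin.

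**Figure D3:**
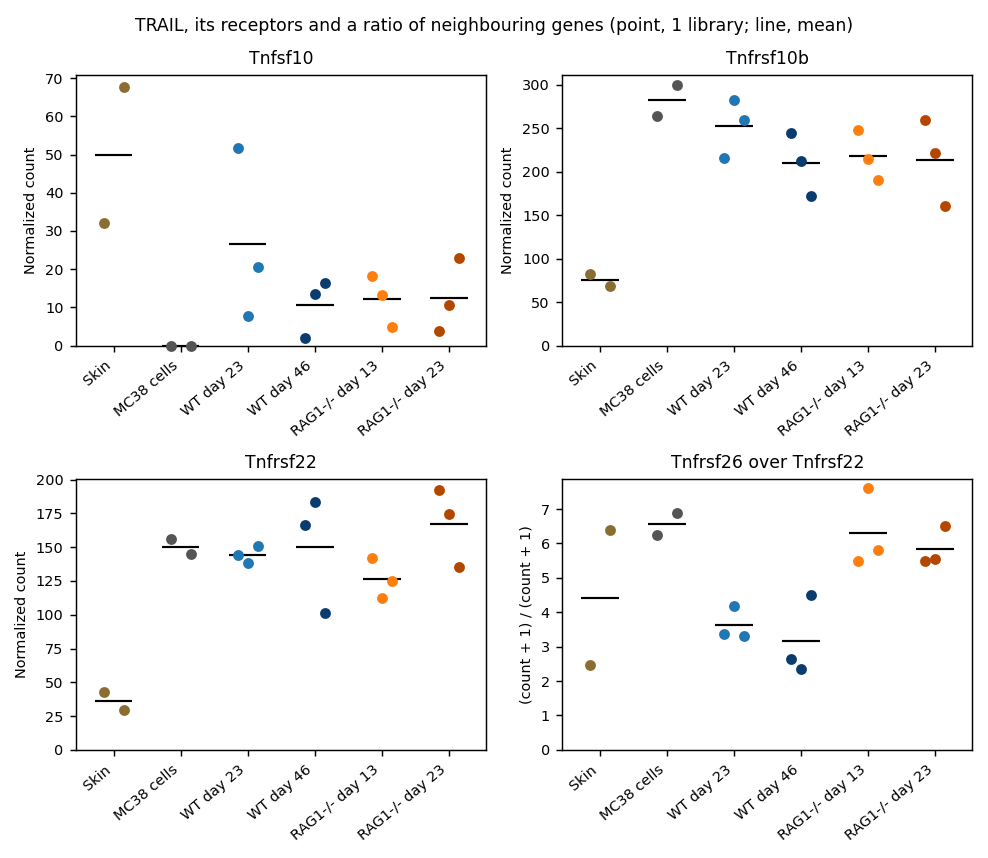
Normalized counts of Tnfsf10, Tnfrsf10b and Tnfrsf22 and the ratio of Tnfrsf26 to Tnfrsf22, each count raised by 1 (vertical axes, linear, from 0), in each library (points) with the group mean (lines). Tnfsf10 is at 0 in MC38 cells, and the ratio lies at 2.36 to 4.51 in wild-type tumors and 5.49 to 7.61 in tumors labelled RAG1-/-.

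Cd27, a costimulatory receptor of T cells and memory B cells, was read in all 6 wild-type tumors and in none labelled RAG1-/-. Wild-type tumors held 10.3, 5.11 and 7.92 normalized counts at day 23 and 2.93, 5.37 and 6.91 at day 46, from 3 to 14 reads each. Skin held 16.1 and 20.4, and MC38 cells had no read. The mean over the 12 tumors was under the minimum for testing, and the filter removed the gene. Against a limit of 3 reads per library, Cd27 was at least 1.83-fold higher in wild-type tumors. An exact permutation test gave p = 0.00216, and limma with no filter gave an adjusted p of 0.00353. Both tests take 0 reads as a value of 0. The limit of 3 reads was 6.38 normalized counts in replicate 2 of the tumors labelled RAG1-/- of day 23. That is above the wild-type values of 5.11, 2.93 and 5.37, so their separation from that tumor was not shown. The T cell markers given above moved with Cd27, and their part was not tested. Its ligand Cd70 was read in 2 tumors, replicates 1 and 2 of wild type at day 46, at 0.977 and 6.04 normalized counts.

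The promoter of Cd27 is shown as the contrast to Tnfrsf1b, at chr6:125236998-125237277 on the minus strand.
Cd27: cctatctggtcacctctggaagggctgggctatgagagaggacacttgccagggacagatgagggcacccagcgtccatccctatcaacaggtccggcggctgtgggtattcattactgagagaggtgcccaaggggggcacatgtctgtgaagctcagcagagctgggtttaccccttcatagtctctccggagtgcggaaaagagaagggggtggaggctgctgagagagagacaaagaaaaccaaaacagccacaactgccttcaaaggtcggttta
It held no match to the 4 motifs searched, and nothing about a factor follows from that.

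The exact test was run on all 42 members. These exact p-values were under 0.05 for 7, namely Cd27, Tnfrsf1b, Tnfrsf26, Ltb (p = 0.0152), Tnfsf15 (p = 0.0152), Tnfrsf18 (p = 0.0173) and Tnfrsf4 (p = 0.0411). They are not adjusted, and the exact test was not run on the other genes. By limma, 7 of the 24 members tested and 1682 of the 14746 genes tested had an unadjusted p under 0.05 in this comparison. Ltb and Tnfsf15 are ligands under the minimum for testing, and their highest values in any tumor were 9.59 and 9.51 normalized counts.

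Tnfrsf18 and Tnfrsf4, which had exact p-values under 0.05, did not pass the adjusted threshold. Tnfrsf18 (GITR), high on regulatory T cells, was at 9.77 to 27.5 normalized counts in wild-type tumors and 0 to 23.4 in tumors labelled RAG1-/-, with a log2 difference of 1.83 (SE 0.63, limma, adjusted p = 0.256). Of its exonic bases, 27.2% lie opposite the gene Gm16008, and the strand setting of the counting was not given in the sources used here. Tnfrsf4 (OX40), induced on activated T cells, was at 6.34 to 26.9 and 2.86 to 15, with a log2 difference of 1.12 (SE 0.44, limma, adjusted p = 0.335). Both pairs of groups overlapped. Their ligands Tnfsf18 and Tnfsf4 had at most 9.63 and 3.81 normalized counts in any tumor.

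Tnfrsf9 (4-1BB), a receptor induced on activated T and NK cells, differed with time in opposite directions. Wild-type tumors held 128, 134 and 176 normalized counts at day 23 and 65.5, 104 and 88.5 at day 46. Tumors labelled RAG1-/- held 37.4, 36.7 and 64.8 at day 13 and 111, 93.6 and 112 at day 23. Neither pair of days overlapped. The log2 change was -0.76 in wild-type tumors (SE 0.29, limma, adjusted p = 0.506) and 1.22 in tumors labelled RAG1-/- (SE 0.29, limma, adjusted p = 0.172). The difference between the 2 time changes was -1.98 (95% confidence interval -2.87 to -1.10, limma, unadjusted p = 0.000232, adjusted p = 0.262). DESeq2 on the recovered reads called this difference at an adjusted p of 0.00621, while limma and edgeR did not. The days differ between genotypes, so genotype and day cannot be told apart in this contrast.

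At day 23, where the genotypes did not overlap, the log2 difference of Tnfrsf9 was 0.45 (SE 0.29, limma, adjusted p = 0.605), and over both days it was 0.68 (SE 0.21, limma, adjusted p = 0.197). Such a lack of overlap at day 23 was found for 16.1% of all genes tested. Its ligand Tnfsf9 (4-1BBL) was at 65.5 to 135 normalized counts in wild-type tumors and 78.6 to 183 in tumors labelled RAG1-/-, with a log2 difference of -0.44 (SE 0.19, limma, adjusted p = 0.391). Tnfsf9 was lower at day 23 than at day 13 in tumors labelled RAG1-/-, without overlap, at 78.6, 132 and 97.7 against 183, 175 and 151, but the change of -0.75 did not pass (limma, adjusted p = 0.303). The ligand was also present in MC38 cells in culture, at 104 and 66.5 normalized counts, whereas Tnfrsf9 was at 5.99 and 14.7 there. Of the exonic bases of Tnfsf9, 14.9% lie opposite Gm11110.

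RefSeq gives 2 start sites of Tnfrsf9, and both promoters are printed because the fitted time changes of the gene lay farthest apart among the 24 members tested. They lie at chr4:150919905-150920184 and chr4:150927749-150928028 on the plus strand.
Tnfrsf9, upstream start: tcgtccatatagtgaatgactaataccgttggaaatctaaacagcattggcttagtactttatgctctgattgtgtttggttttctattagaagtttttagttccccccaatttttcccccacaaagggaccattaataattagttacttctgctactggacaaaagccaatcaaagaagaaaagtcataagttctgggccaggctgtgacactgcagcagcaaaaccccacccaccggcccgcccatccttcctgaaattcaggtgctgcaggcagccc
Tnfrsf9, downstream start: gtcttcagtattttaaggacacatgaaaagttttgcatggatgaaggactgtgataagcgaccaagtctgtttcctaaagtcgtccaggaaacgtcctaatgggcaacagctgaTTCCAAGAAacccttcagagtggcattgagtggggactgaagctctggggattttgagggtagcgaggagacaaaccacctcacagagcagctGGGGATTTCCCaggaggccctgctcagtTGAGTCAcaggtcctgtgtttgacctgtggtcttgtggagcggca
The upstream promoter held no match to the motifs. The downstream promoter held a gamma-activated site at -136 to -128, 2 overlapping matches to the NF-κB consensus between -43 and -33, and an AP-1 site, searched as TGANTCA, at -15 to -9. Over all promoters, 7.94% held the NF-κB consensus and 7.46% the AP-1 site. Among the members' promoters these numbers were 4 of 36 (Ltb, Tnfrsf25, Tnfrsf8 and Tnfrsf9) and 6 of 36.

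At day 23, the day that both genotypes share, Tnfrsf26 and Tnfrsf1b were again the 2 of 24 members past the threshold, against 0.278% of all genes tested. The groups of day 23 did not overlap for 5 of the 24 members, against 16.1% of all genes tested. Ltbr, the receptor of lymphotoxin on stromal and myeloid cells, was at 1461, 977 and 1451 normalized counts in wild-type tumors and 829, 732 and 566 in tumors labelled RAG1-/-. The groups did not overlap, and the log2 difference was 0.86 (SE 0.31, limma, adjusted p = 0.305). Fas, the death receptor engaged by cytotoxic T cells, was at 148, 50.3 and 190 against 30.1, 44.7 and 70.3, and its groups overlapped (log2 difference 1.28, SE 0.47, limma, adjusted p = 0.31). Replicate 2 of the wild-type tumors lay within the range of the tumors labelled RAG1-/-. Tnfrsf1a was at 1080, 769 and 929 against 768, 736 and 673, narrowly without overlap (log2 difference 0.34, limma, adjusted p = 0.446).

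**Figure D4:**
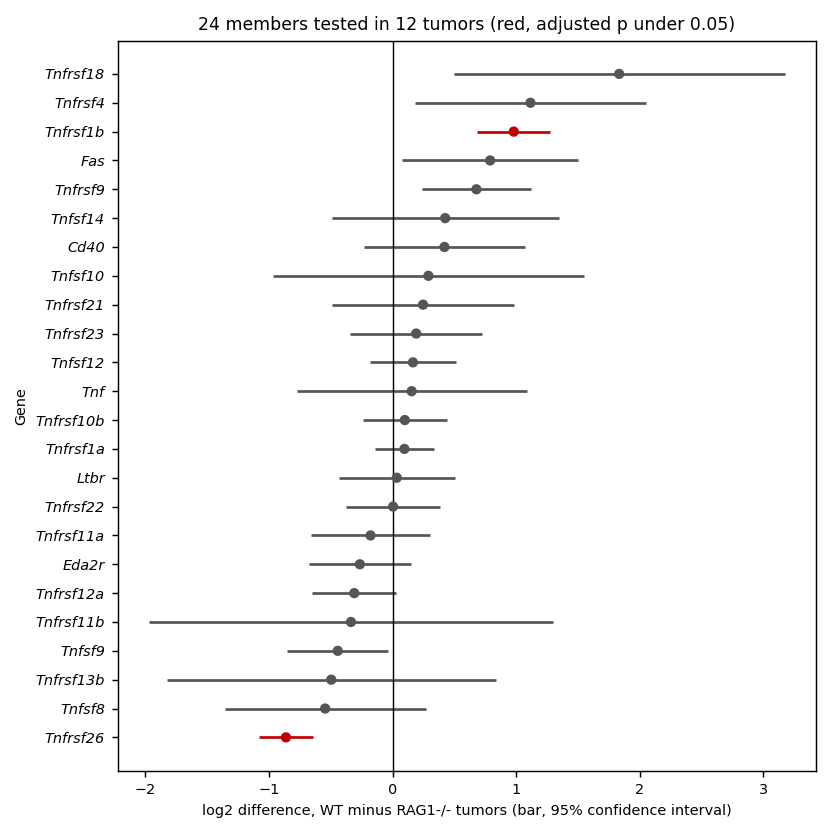
Log2 difference by host genotype (horizontal axis, positive where wild type is higher) for the 24 members tested, with 95% confidence intervals (bars). Red marks the 2 members with an adjusted p under 0.05, Tnfrsf1b at 0.98 and Tnfrsf26 at -0.86, and intervals of low-count members such as Tnfrsf11b and Tnfrsf18 are wide.

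Over time limma and edgeR called no member in either genotype, while DESeq2 called 1, Tnfrsf9 between day 13 and day 23 of the tumors labelled RAG1-/- (adjusted p = 0.0227). Between day 23 and day 46 of the wild-type tumors, 0 of 24 members and 0% of the 14746 genes were called by limma. At an unadjusted p under 0.05 there were 3 members and 1261 genes, edgeR called 0 genes and DESeq2 called 41. Between day 13 and day 23 of the tumors labelled RAG1-/-, limma again called 0 of 24 members and 0% of genes, with 5 members and 1722 genes at an unadjusted p under 0.05, 0 genes by edgeR and 206 by DESeq2. For the difference between the time changes these numbers were 0 of 24 members and 0% of genes by limma, 4 members and 1279 genes unadjusted, 0 genes by edgeR and 58 by DESeq2.

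In the tumors labelled RAG1-/-, 5 of 24 members had days that did not overlap, against 19.4% of all genes tested. Besides Tnfrsf9 and Tnfsf9 these were Ltbr, which stood at 1741, 1656 and 957 normalized counts at day 13 and changed by -1.0 (SE 0.31, limma, adjusted p = 0.26), Tnfrsf1a (-0.49, SE 0.16, limma, adjusted p = 0.265), and Tnfrsf26 (0.30, SE 0.14, limma, adjusted p = 0.446). Ngfr, the neurotrophin receptor of nerves, was at 18.2, 7.78 and 13.3 normalized counts at day 13 and at 0, 0 and 1.33 at day 23, under the minimum for testing. The skeletal muscle markers given above were highest at day 13, and their part was not tested.

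The comparison of MC38 cells with skin asks how the cultured cancer cells differ from tissue of the injection site. Of 32 members tested, 6 were higher in MC38 cells, against 20.8% of the 16780 genes tested, and 20 were lower, against 41.2% of genes. The members higher in MC38 cells were Tnfrsf12a, Tnfrsf26, Tnfrsf22, Tnfrsf10b, Tnfsf9 and Ltbr. With upper quartile scaling the median of all genes rose by 0.47 on the log2 scale, and the split of all genes moved from 3482 higher and 6920 lower to 5277 and 5645, while 7 members were higher and 17 lower. With total scaling the numbers were 4972 and 5759, and 6 and 17 members.

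Tnfrsf12a, the receptor of TWEAK, was at 616 and 574 normalized counts in MC38 cells and 44.2 and 77.8 in skin, a log2 difference of 3.32 (SE 0.32, limma, adjusted p = 0.00097). Its ligand TWEAK (Tnfsf12) was at 184 and 243 against 161 and 194, with ranges that overlapped, and at 166 to 324 over all tumors. Of the exonic bases of Tnfsf12, 48.3% are shared with the readthrough gene Tnfsfm13. Tnfrsf26 was 2.78 higher in MC38 cells on the log2 scale (SE 0.31), Tnfrsf22 2.05 (SE 0.31) and Tnfrsf10b 1.90 (SE 0.22), with limma adjusted p-values of 0.00147, 0.00387 and 0.0018.

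In all, 9 members tested reached the minimum for testing through skin alone and had no read in MC38 cells. Against a limit of 3 reads per library, Tnfrsf19 (TROY), a receptor of skin and hair follicle cells, was at least 519-fold lower there. Tnfrsf11a (RANK), which drives osteoclasts, was at least 80.1-fold lower, and Tnfrsf11b (osteoprotegerin), the decoy of RANK ligand, at least 44.3-fold. Tnfrsf13b (TACI), a receptor of B cells, was at least 27.8-fold lower and Tnfsf10 at least 18.1-fold. For Cd27, Tnfsf8, Tnfrsf17 and Lta the lower limits were 4.46 to 6.63. Among members with reads, Tnfrsf18 was at 0 and 0.978 normalized counts in MC38 cells and 509 and 512 in skin, Tnfrsf4 at 6.84 and 5.87 against 134 and 149, and Tnfrsf21 (DR6) at 2.57 and 2.93 against 264 and 246. Skin held 417 and 561 normalized counts of T cell markers, and MC38 cells 0.856 and 3.91. Over the 32 members the median log2 difference was -3.66, or -2.42 with the members without reads set at their limits, and over all genes it was -0.40.

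Several of these calls depended on single libraries or on other settings. Without skin replicate 2, 17 members were called in place of 26. Tnfsf9, Tnf, Tnfrsf25 and Tnfsf14 lost their calls without either skin library (limma, adjusted p = 0.0595 to 0.125), Ngfr without skin replicate 1 (adjusted p = 0.0505), and Fas without either skin library or MC38 replicate 1 (adjusted p = 0.0926 to 0.163). Ltbr lost its call without skin replicate 1 or either MC38 library (adjusted p = 0.0746 to 0.102), Tnfrsf1a without either MC38 library (adjusted p = 0.0619 and 0.062) and with upper quartile or total scaling (adjusted p = 0.135 and 0.0876), Tnfsf15 without either skin library or MC38 replicate 1 (adjusted p = 0.178 to 0.359), and Tnfsf9 also without MC38 replicate 1 (adjusted p = 0.0868). With all libraries, Tnfsf15 was lost by edgeR (adjusted p = 0.0503) and DESeq2 (0.0638), with either scaling, no filter, no trend or a pseudocount of 0.1 (0.0692 to 0.0823), Fas with upper quartile or total scaling (0.0628 and 0.0614), and Ltbr with no trend or other groups in the fit (0.0592 and 0.0567). Tnfrsf1b, at 127 and 116 against 169 and 277, did not pass (log2 difference -0.82, limma, adjusted p = 0.0668), but did without skin replicate 1 (adjusted p = 0.0498) and with other groups in the fit (0.0124).

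Several members were higher in tumors than in the cultured cells. Wild-type tumors had 12 of 24 members higher than MC38 cells, against 18.3% of the 14708 genes tested, and 1 lower, Tnfrsf26, against 9.61% of genes. Tnfrsf12a did not pass, at 287 to 526 normalized counts in wild-type tumors and 616 and 574 in MC38 cells. It was called lower with upper quartile scaling (log2 difference -0.68, limma, adjusted p = 0.024). Without replicate 2 of the wild-type tumors of day 23 it was called lower too (-0.64, limma, adjusted p = 0.0279). Tumors labelled RAG1-/- had 12 of 24 higher, against 15.8% of genes, and 0 lower, against 7.55%. At an unadjusted p under 0.05 by limma, 2 members and 2197 genes were lower in wild-type tumors. In tumors labelled RAG1-/- these numbers were 0 members and 1931 genes. Both comparisons use the same 2 MC38 libraries. The minimum for testing was a mean over tumors and MC38 cells together. In each comparison, 5 of the 24 members had no read in 1 of the groups compared, MC38 cells, and reached the minimum through the tumors alone. The same filter held for all genes. The median log2 difference over the members was 1.89 and 1.30, against 0.05 and 0.06 for all genes, and the former was 1.47 with members without reads set at their limits. With upper quartile scaling, the split of all genes moved from 2687 higher and 1413 lower to 2324 and 2298 for wild-type tumors and from 2317 and 1111 to 2091 and 1687 for tumors labelled RAG1-/-, and 11 and 12 members were higher.

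Higher in both kinds of tumor were the receptors Cd40, Tnfrsf1b, Tnfrsf9, Tnfrsf11a, Tnfrsf13b, Tnfrsf21 and Eda2r and the ligands Tnf, Tnfsf8, Tnfsf10 and Tnfsf14. Cd40, the receptor by which antigen-presenting cells take T cell help, was at 55.7 to 158 normalized counts in wild-type tumors, 27.5 to 85.7 in tumors labelled RAG1-/- and 0 and 0.856 in MC38 cells. Tnfrsf11a was at 80.8 to 188 and 81.3 to 183, at least 45.3-fold and 51.6-fold above MC38 cells. Tnfsf8 (CD30 ligand) was at least 7.49-fold and 11.1-fold higher, and Tnfrsf13b at least 16.7-fold and 17.2-fold. Tnfrsf18 was called in wild-type tumors alone and Tnfrsf11b in tumors labelled RAG1-/- alone, and neither passed the test between the genotypes. Without replicate 1 of day 23, which had no read of Tnfrsf18, this gene was also called in tumors labelled RAG1-/- (log2 difference 2.42, limma, adjusted p = 0.0109). Macrophage markers summed to 35.9 and 50.8 normalized counts in MC38 cells, so these members and the markers of host cells were higher in tumors together, and the part of host cells was not tested.

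Leaving out MC38 replicate 2 ended the call of Tnfsf14 in wild-type tumors (limma, adjusted p = 0.0643) and of Tnfsf10, Eda2r, Tnfsf14 and Tnfrsf11b in tumors labelled RAG1-/- (adjusted p = 0.0523 to 0.22). Leaving out MC38 replicate 1 ended the call of Tnfrsf18 in wild-type tumors (adjusted p = 0.0916). The adjusted p of Eda2r in wild-type tumors (0.0393 by limma) rose to between 0.0578 and 0.318 without either MC38 library or without replicate 2 or 3 of either day of the wild-type tumors, and that of Tnfrsf11b in tumors labelled RAG1-/- (0.0449) to between 0.0528 and 0.22 without either MC38 library, replicate 3 of wild type at day 23, replicate 1 or 3 of day 13 or replicate 2 of day 23. With all libraries, Eda2r was also lost with upper quartile scaling, no trend, no filter or other groups in the fit (adjusted p = 0.0569 to 0.0838), and Tnfrsf11b by edgeR and with no filter, no trend or a pseudocount of 5 (adjusted p = 0.0634 to 0.0971). Fas, at 33.7 on average in MC38 cells and 93.1 in wild-type tumors, did not pass (log2 difference 1.24, SE 0.46, limma, adjusted p = 0.0523), but passed by DESeq2 (adjusted p = 0.0201), without replicate 2 of the wild-type tumors of day 23 (0.00779) and without any of 3 tumors labelled RAG1-/- (0.0481 to 0.0497).

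Against skin, wild-type tumors had 8 of 29 members higher, against 22.8% of the 16259 genes tested, and 11 lower, against 34.2%. Higher were Tnfrsf9 (log2 difference 3.26, SE 0.36), Tnfrsf12a (2.79, SE 0.26), Tnfsf9 (2.06, SE 0.28), Tnfrsf22, Tnfrsf26, Tnfrsf1b, Tnfrsf10b and Eda2r. Lower were Tnfrsf19 (-8.93, SE 0.85), Ngfr (-6.12, SE 0.71), Tnfrsf18, Tnfrsf11b, Tnfrsf4, Tnfrsf25, Tnfsf15, Tnfrsf21, Cd27, Tnfrsf1a and Tnfrsf11a. Tnfrsf1b thus stood at 588 to 889 normalized counts in wild-type tumors, 169 and 277 in skin and 116 and 127 in MC38 cells. The median log2 difference was -0.36 over the members and -0.18 over all genes. With upper quartile scaling the median of all genes rose by 0.45, the split of all genes moved from 3708 higher and 5554 lower to 5807 and 4072, and that of the members to 10 and 9. Without skin replicate 1 the calls of Eda2r (limma, adjusted p = 0.528) and Tnfrsf11a (adjusted p = 0.0567) were lost, and without skin replicate 2 those of Tnfrsf11a (adjusted p = 0.362) and Tnfrsf11b (adjusted p = 0.0571). The call of Tnfrsf11a was also lost with upper quartile scaling (log2 difference -0.38 in place of -0.83, adjusted p = 0.334), total scaling (-0.44, adjusted p = 0.294), edgeR (adjusted p = 0.0899), no filter, no trend or other groups in the fit (0.0545 to 0.0584), and without any of 8 tumors (0.0507 to 0.0758). That of Cd27 was lost by DESeq2 (adjusted p = 0.236), by edgeR (0.0704), with upper quartile or total scaling and with a pseudocount of 0.1 (0.0528 to 0.0585). That of Tnfrsf25 was lost by DESeq2 (adjusted p = 0.089) and with a pseudocount of 0.1 (0.0545), and that of Tnfsf15 with this pseudocount (0.11).

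Genes that act with the family were read from 5 lists, adaptors and ubiquitin ligases of the receptors (24 genes), death machinery (14), NF-κB factors and kinases (19), genes that TNF is known to induce (36) and shedding and other regulators (11). Between the genotypes, 0 of the 66 genes tested in 4 lists passed the limma threshold over both days, while 0.712% of all genes did. At an unadjusted p under 0.05 there were 7, and edgeR called 0 and DESeq2 1 (Diablo). The exception was 1 of 32 TNF-induced genes tested, Il15, a cytokine that sustains NK and memory T cells, with a log2 difference of 0.91 (SE 0.18, limma, adjusted p = 0.0311). The median over the 32 genes was -0.01, equal numbers lay above and below 0, and over all genes the median was 0.01. At day 23, Irf1, a transcription factor induced by interferon and TNF, was the gene of the 5 lists that limma called (log2 difference 1.07, adjusted p = 0.0438). At that day edgeR called 0 of the 32 TNF-induced genes and DESeq2 4, Irf1 among them.

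Against MC38 cells, 19 of 32 TNF-induced genes passed as higher in wild-type tumors and 3 as lower, with 18 higher and 4 lower in tumors labelled RAG1-/-, where 18.3% and 15.8% of all genes were higher. The median log2 differences were 1.41 and 1.43. Among the genes higher in wild-type tumors were Il1b, the inflammatory cytokine (7.39), and Icam1, the adhesion molecule (5.01). Ptgs2 and Cxcl1 were lower, at -2.01 and -1.67. Of the adaptors, 6 of 23 were higher in wild-type tumors and 1 was lower, led by Tnfaip3, which encodes the NF-κB inhibitor A20 (4.74), and Birc3 (1.32) was among the 6. Of the death machinery, 4 of 14 were higher and 0 lower, with Ripk3, the kinase of necroptosis, at 5.09. Of the NF-κB factors and kinases, 7 of 19 were higher and 2 lower, and of the regulators 4 of 10 and 1. Macrophage markers, at 35.9 and 50.8 normalized counts in MC38 cells and 10251 to 22709 in the tumors, were higher in tumors, as were those of endothelium (9.41 and 13.7 against 347 to 1031) and fibroblasts (4955 and 5649 against 13559 to 48534). The part of these cells in the lists was not tested.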

How the data were processed

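Per the labels and methods, QuantSeq 3′ libraries were run on an Ion Proton. The authors trimmed reads with Cutadapt and Trimmomatic, removed those under 22 nucleotides, aligned the rest to mm10 with STAR and then Bowtie2, kept primary alignments and counted per gene with HTSeq-count. The deposited signal is this count per gene divided by a DESeq2 size factor, called normalized count here. Every value was a whole multiple of the value of 1 read within 0.01 read, so reads were recovered. Annotation and strand setting were not given in the sources used here.

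Differences were tested with limma 3.58.1 (R 4.3.3, trend) on log2(normalized count + 1), a scale that understates changes of low genes, after removing genes whose mean over the fitted libraries was under 5. Tests were two-sided and p-values were adjusted by Benjamini-Hochberg over all genes tested. Tumors were fitted together as 4 groups, MC38 cells and skin as 2, and tumors against either as 5. edgeR 4.0.16 and DESeq2 1.42.0 on the recovered reads, other pseudocounts, filters and scalings, a replicate block and left-out libraries were alternatives. The limma fit was tested on simulated data. Python 3.11.15 ran the exact permutation tests. Positions come from GENCODE (GRCm38, the build of mm10). Promoters come from RefSeq.

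All members could be named, with full values for called members and their partners, and up to 5 called genes per list and direction. Members and lists were chosen with earlier results of these data known. A second table, of antibody-treated tumors, was not used here. Values of genes with near-identical copies, and of genes that overlap others, are uncertain.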

Additional observations from a re-analysis of the deposited data

Results flagged for a closer look

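Among the 24 members tested, the 6 tumors of each genotype were examined for a tumor far from the others on the log2 scale, in 48 combinations, and 3 were found. Chance flags about 1 in 20 groups. Tnfrsf13b (TACI) was at 1.58 normalized counts, a single read, in replicate 3 of the wild-type tumors of day 23, and at 35.2 to 77.4 in the other wild-type tumors. Tnfsf8 was at 45.0 normalized counts in replicate 1 of the same group and at 13.2 to 19.0 in the others. Tnf was at 7.49 in replicate 1 of the tumors labelled RAG1-/- of day 13 and at 26.2 to 33.4 in the others.

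Time changes in opposite directions without overlap of the days, as found for 0.793% of the 14746 genes tested, occurred in 2 members. The difference between the time changes was -1.98 for Tnfrsf9 (limma, adjusted p = 0.262) and -0.53 for Tnfrsf26 (limma, adjusted p = 0.531), and neither passed the adjusted threshold.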

How the results depend on the processing

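Of 74 member results called by limma, 50 lost no call under the alternatives in which the member was still tested. Alternatives that filtered a member out, or gave it no adjusted p, were not counted for it. The 1551 values of these results under the alternatives held 97 lost calls and 0 reversed directions. With no trend, 48 genes were called between the genotypes over both days and 15 at day 23, with 0 members at day 23, where no filter and edgeR gave 22 genes each. DESeq2 called 283 genes over both days, 239 at day 23, 41 and 206 over time in wild-type tumors and tumors labelled RAG1-/- and 58 for the difference of the time changes, with 1 member (Tnfrsf9) in each of the latter 2. With other groups in the fit, 23 genes were called over time in tumors labelled RAG1-/- and 3 for the difference. The cause of these shifts was not tested.

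Leaving out single libraries gave 65 to 171 genes over both days, 5 to 89 genes and 0 to 2 members at day 23, 0 to 7 and 0 to 37 genes over time, 0 to 5 for the difference, 6253 to 7400 genes and 17 to 25 members for MC38 cells against skin, and 2172 to 4396 and 1832 to 3781 genes for the tumors against MC38 cells. In arms of 2, a lone library was assumed to vary like the other groups. The difference of Tnfrsf22 over both days, near 0, was -0.021 with upper quartile scaling, -0.0031 with total scaling and between -0.078 and 0.13 without single libraries.

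Tumors with the same replicate number did not deviate together (r from -0.236 to 0.246 in 18 pairs, against -0.213 to 0.201 for other pairs), and 7 of 12 tumors correlated better on average with their own number. The replicate block gave 109 genes over both days, 39 at day 23 and 0 over time, with 2 members in each of the first 2. With the block, Eda2r in wild-type tumors against MC38 cells (adjusted p = 0.0796) and Tnfrsf11a against skin (0.0667) lost their calls, and Tnfrsf1b in MC38 cells against skin gained one (0.0459). At these depths, members under 3 reads in a library were not detectable there.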
